A study of Mus musculus with 8 samples.

Results

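The clustered protocadherins are cadherin-like adhesion receptors of the neuronal surface, encoded in 3 gene clusters that lie side by side on mouse chromosome 18. All rows of the count table whose symbol begins with Pcdha, Pcdhac, Pcdhb, Pcdhga, Pcdhgb or Pcdhgc followed by a digit were taken, which gave 57 genes of 32285. The alpha cluster held 14 of them, the beta cluster 22 and the gamma cluster 21. On the plus strand in mm10, and in GENCODE M21, the alpha genes span 36930184 to 37187661, the beta genes 37264938 to 37524479 and the gamma genes 37661793 to 37841873.

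RNA-seq counts came from the brains of neonatal C57BL/6 mice, 4 control and 4 ICSI-F2 libraries. Controls were pups of wild-type parents that had mated naturally. ICSI-F2 pups were males fathered, through natural mating, by males that had themselves been conceived by intracytoplasmic sperm injection, the placing of a sperm into the egg with a pipette. The labels do not state the sex of the controls, the number of fathers or litters, or any pooling. The p-values therefore rest on library-to-library spread alone, part of which may be technical. Clustered protocadherin promoters are under epigenetic control, and the comparison asks whether their brain expression differs 1 generation after the ICSI-born fathers.

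In the alpha and gamma clusters each gene has its own large first exon, which encodes the extracellular, transmembrane and near-membrane part, and this exon is spliced to constant exons that all genes of the cluster share. Beta genes have no shared constant exons. A neuron chooses a small set of alternative promoters, largely at random, through antisense transcription, DNA demethylation and looping by CTCF and cohesin to a distal enhancer. The C-type genes, Pcdhac1, Pcdhac2, Pcdhgc3, Pcdhgc4 and Pcdhgc5, are regulated differently and tend to be expressed in many neurons. The proteins bind the same isoforms on the facing membrane, which lets neurites of a single neuron recognise and avoid each other.

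In GENCODE M21 the alpha genes share 2860 to 2864 exonic bases with other genes of the table, 38% to 54.9% of their exons, and the gamma genes share 2116 to 3157 bases, 31.5% to 66.8%. A read in a shared exon cannot be given to a single gene, and the sources used here do not give how the authors' counting treated it. Levels are therefore given as CPM, counts per 1000000 of the scaled library total, or as CPM per kilobase (kb) of unshared exon when genes are compared with each other. The second scale takes reads in shared exons as not counted, which was not tested. The table lists the symbol Pcdha11 for 2 gene identifiers. RefSeq places the start of Pcdha10 within 300 bases of the first, ENSMUSG00000007440, which is written here with its identifier, and Pcdha11 at the other. Exons of genes on the opposite strand cover parts of some members, among them all 2613 unshared bases of Pcdhga10, which lie opposite Gm26672, and 1559 bases of Pcdhgc3 opposite BC037039. The sources used here do not give the strand setting of the counting, and those counts could hold reads of both strands.

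Library totals ran from 12968175 to 16551511 counts, of which the 57 genes together took 14826 to 18851. All 10 neuron markers were present in every library, led by Map2 at 2310 to 2440 CPM. Control replicates 1 and 2, whose sample codes carry the letter A, were the highest in markers of hindbrain and spinal cord, Hox genes and Slc6a5 among them. The 10 genes of that list summed to 107 and 57.5 CPM there and to 0.987 to 14.6 CPM in each of the remaining libraries, and Hoxc8 was at 0 throughout. ICSI-F2 replicates 3 and 4, code letter G, held the liver transcript Alb at 10.4 and 20.2 CPM, against at most 0.0766 CPM elsewhere, and meningeal markers summing to 603 and 592 CPM, against 427 to 463 CPM elsewhere. The other controls carry the letter D and the other ICSI-F2 libraries the letter F, and the sources used here do not give the meaning of the letters. Each letter lies inside a group, so letter and group cannot be told apart in a joint fit.

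The gamma cluster gave most of the counts. Over all 8 libraries it held 54.1% of the counts of the 57 genes, the beta cluster 27.5% and the alpha cluster 18.4%. The 5 C-type genes alone held 23.3%. Per kb of unshared exon, the median C-type gene stood at 14 CPM, the median of the other 18 gamma genes at 7.63 CPM, of the other 12 alpha genes at 5.13 CPM and of the 22 beta genes at 2.48 CPM.

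The 2 C-type genes of highest level led the whole family. Pcdhgc3, an isoform that in the mouse promotes dendrite branching through Axin1, averaged 34.2 CPM per kb over the 8 libraries, with a range of 30.9 to 37.1. Pcdhgc4, which mouse interneurons need for survival, followed at 23.7 CPM per kb (21.7 to 26.2). These ranges overlap neither each other nor that of the third gene, Pcdhga11, at 15.2 CPM per kb (14.3 to 16.2). Pcdhac2, the isoform that serotonergic axons of the mouse need for even spacing, came next at 14 CPM per kb (12.7 to 15), and its libraries overlapped those of Pcdhga11. Pcdhgb6 averaged 12.5 CPM per kb (11.8 to 13.2) and overlapped Pcdhac2. Not all C-type genes were high. Pcdhgc5, which rises late in brain development in the mouse, averaged 4.18 CPM per kb (3.49 to 4.65), the lowest of the gamma cluster, and overlapped Pcdhga1 at 4.31 (4.07 to 4.50). Pcdhac1 averaged 3.19 CPM per kb (2.78 to 3.59).

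Among the alternative alpha genes, Pcdha9, Pcdha5 and Pcdha12 were the highest, at 7.66, 7.49 and 7.27 CPM per kb, with overlapping libraries. Pcdha8 averaged 2.52 CPM per kb (1.81 to 3.37). Pcdha1, the gene farthest from the shared exons, was the lowest alpha gene at 0.949 CPM per kb (0.549 to 1.13), and its libraries lay below those of every other alpha gene.

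Beta genes nearer the gamma cluster tended to have the higher levels. Across the 22 genes, Spearman's rho between the order along the chromosome and CPM per kb was 0.66, given as a description over genes that share libraries and differ in annotated length. The 15 genes from Pcdhb1 to Pcdhb15 had a median of 2.19 CPM per kb and the 7 genes from Pcdhb16 to Pcdhb22 a median of 5.46, a division made after the values were seen. Pcdhb17 (6.94), Pcdhb20 (6.51), Pcdhb19 (5.71) and Pcdhb16 (5.46 CPM per kb) led the cluster. Pcdhb6 (1.55) and Pcdhb13 (1.77 CPM per kb) were the lowest of those tested. Pcdhb1, at the alpha end, was nearly silent, with 1 to 6 counts per library and 0.072 CPM per kb, and it was the only member that did not pass the filter on low counts. The same rho was 0.23 over the 12 alternative alpha genes and 0.35 over the 18 alternative gamma genes.

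**Figure D1:**
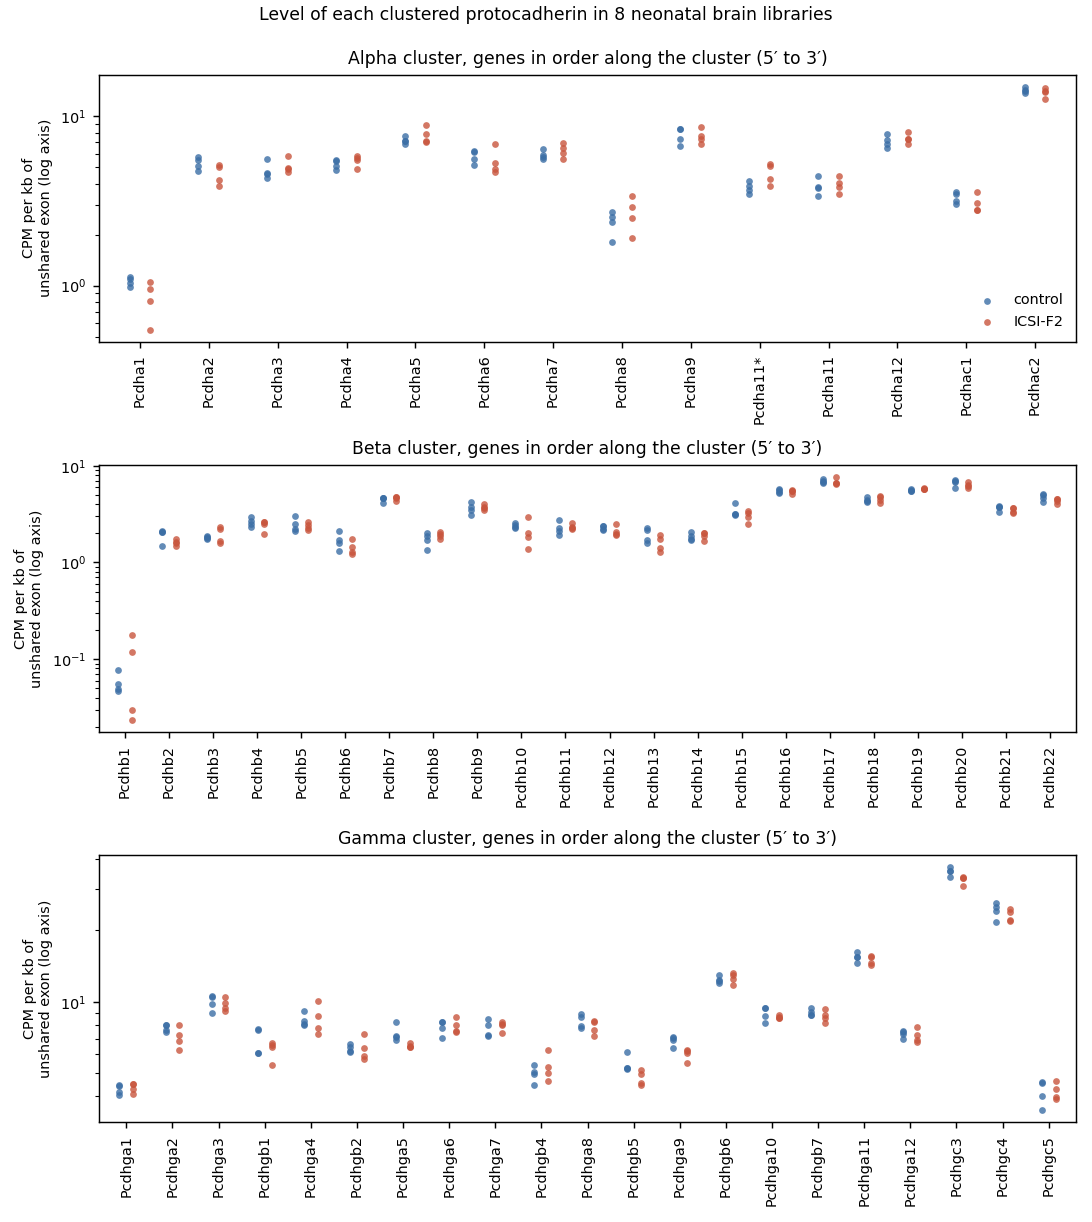
Level of each of the 57 genes in CPM per kb of unshared exon (log axis), genes in chromosome order, 1 point per library, 4 control and 4 ICSI-F2. Pcdhgc3 and Pcdhgc4 stand highest, at means of 34.2 and 23.7, and Pcdhb1 lowest at 0.072; the asterisk marks ENSMUSG00000007440.

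The order of the members by plain CPM, not divided by exon length, was nearly the same in every brain. Spearman's rho between 2 libraries over the 57 genes was 0.96 to 0.987, as a description. The members' spread between libraries of a group had a median near that of other tested genes within their range of mean count. Those other genes were not matched to the members by count inside the range. Measured as chi-square per degree of freedom, where 1 is counting noise alone, the median of the 56 tested members was 1.65 (quartiles 1.14 and 2.19). For the 11201 other tested genes with a mean count in the same range, 34.6 to 1690, the median was 1.75 (quartiles 1.09 and 2.71). A value above 2 was found in 20 of 56 members (35.7%) and in 42% of the other genes. Pcdhgc4 had the highest spread of the family, 6.00, and Pcdhb19 the lowest, 0.294. In Pcdhb19 the coefficient of variation between libraries was 2.63% in control and 1.66% in ICSI-F2.

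**Figure D2:**
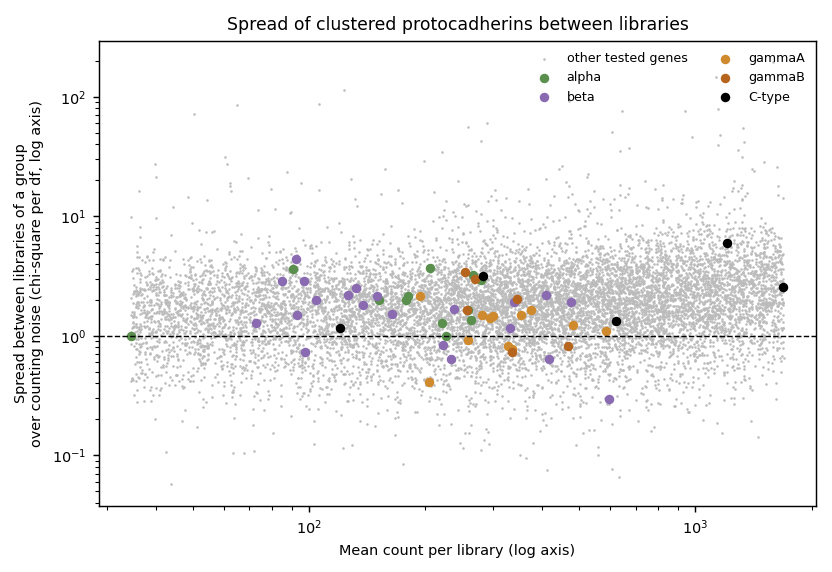
Spread between libraries of the same group over counting noise (chi-square per degree of freedom, log axis) against the mean count (log axis), for 56 tested members in colour and 11201 other tested genes in grey. The dashed line at 1 is counting noise, and the members lie inside the cloud of the other genes, with medians of 1.65 and 1.75.

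No clustered protocadherin gene passed an adjusted p of 0.05 between ICSI-F2 and control brains. Over the 15565 genes tested, edgeR's quasi-likelihood test called 0.00642%, and 0 of the 56 members. DESeq2 and limma voom also gave 0 members. At an unadjusted p under 0.05, 5 members were lower (8.93%), against 3.37% of all tested genes, and 1 was higher (1.79%), against 3.93%. These 6 members became 3 without ICSI-F2 replicate 4 and 2 without both letter G libraries, those with meningeal and liver transcripts. Without the letter A and the letter G libraries together there were 7. All 6 kept their direction without the letter G libraries, at log2 fold changes from -0.198 (Pcdha2) to 0.245 (ENSMUSG00000007440). Fewer libraries also give the test less power, and the cause of the drop in number was not tested. In 4 members (7.14%) all ICSI-F2 libraries lay below all controls, against 2% of all tested genes, and in 0 did they lie above, against 1.97%. Fold changes below 0 were found for 33 members (58.9%), against 49.6% of all tested genes. The median log2 fold change was -0.04 over the members and 0.00065 over all tested genes. In whole tissue, fewer cells of a type and less RNA per cell cannot be told apart.

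For each gene taken alone, the 95% intervals bound the size of a change in mean level over whole tissue, if the libraries are independent. They rest on spread between libraries alone. Fathers and litters, which the labels do not state, are not in the fit, and libraries that share them would make the intervals too narrow. A change within a region, a cell type or single neurons is not bounded. The median standard error of a member's log2 fold change was 0.09. The 95% interval allowed no change beyond 1.5-fold in either direction for 54 of 56 members (96.4%), against 83.8% of all tested genes. The tested genes were not matched to the members by count. The 2 members outside this bound were Pcdha1 (-0.335, 95% interval -0.78 to 0.11) and Pcdhb2 (-0.28, -0.59 to 0.04). Both have low counts and were named after their values were seen.

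**Figure D3:**
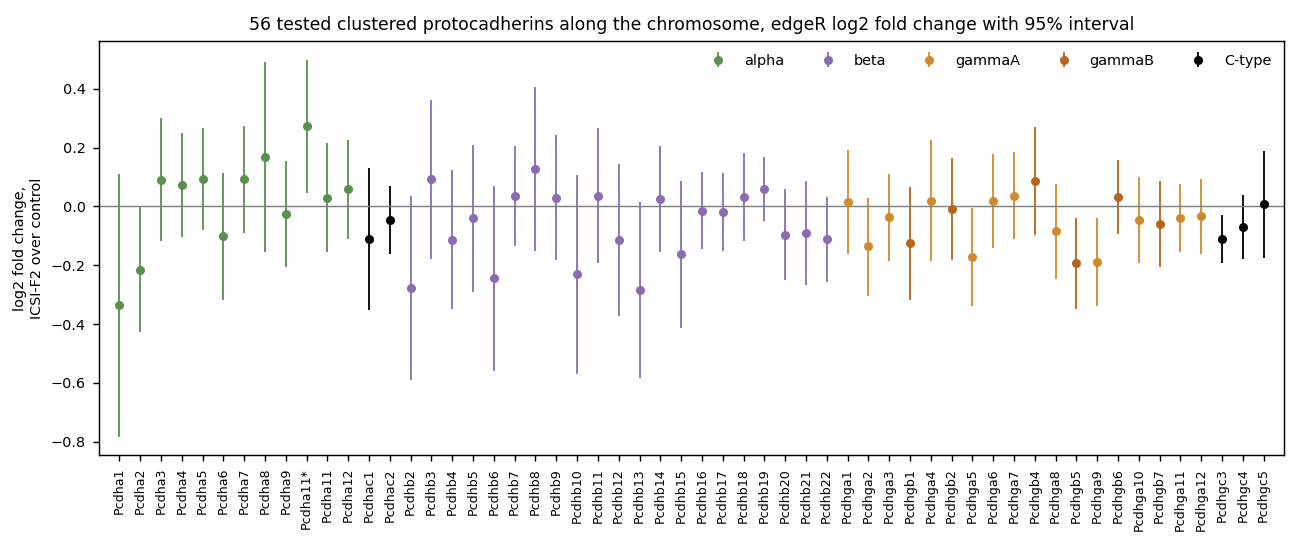
log2 fold change of ICSI-F2 over control for the 56 tested members in chromosome order, with 95% intervals from edgeR. Point estimates run from -0.335 (Pcdha1) to 0.27 (ENSMUSG00000007440, asterisk), and no member passed an adjusted p of 0.05.

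The lowest p among members belonged to Pcdhgc3, the most abundant gene of the family. It stood at 114, 125, 121 and 120 CPM in control replicates 1 to 4 and at 113, 104, 114 and 113 CPM in ICSI-F2 replicates 1 to 4. The groups did not overlap at full precision, although control replicate 1 and ICSI-F2 replicate 3 round to the same value. Mean levels were 120 ± 4.53 CPM in controls and 111 ± 4.52 CPM in ICSI-F2 brains, both SD with n = 4. The log2 fold change was -0.11 (SE 0.04, edgeR adjusted p = 0.562).

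Pcdhga9 and Pcdhgb5, neighbouring genes of the gamma cluster, followed. Pcdhga9 stood at 23.9, 22.2, 24.4 and 24.7 CPM in controls and at 21.5, 21.1, 19.1 and 21.7 CPM in ICSI-F2 brains. Its groups did not overlap, and its log2 fold change was -0.19 (SE 0.07, edgeR adjusted p = 0.576). Pcdhgb5 stood at 23.9, 24.2, 28.2 and 24.3 CPM in controls and at 22.8, 23.8, 20.9 and 20.5 CPM in ICSI-F2 brains. Its groups were also apart, by little, with a log2 fold change of -0.19 (SE 0.08, edgeR adjusted p = 0.596). Pcdhga5, named after its values were seen, was the other member whose groups were apart, at 17.5 to 20.8 CPM in controls and 16.3 to 17.1 CPM in ICSI-F2 brains (log2 fold change -0.17, edgeR adjusted p = 0.658). Pcdha2, likewise named afterwards, had a log2 fold change of -0.215 (edgeR adjusted p = 0.674) with overlapping groups.

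In the other direction, ENSMUSG00000007440 of the alpha cluster stood at 9.23, 8.74, 9.68 and 10.3 CPM in controls and at 9.63, 13.0, 10.7 and 12.7 CPM in ICSI-F2 brains. ICSI-F2 replicate 1 lay inside the control range and the other ICSI-F2 libraries above it. The log2 fold change was 0.27 (SE 0.11, edgeR adjusted p = 0.607). Ordered by p, Pcdha5 (0.09) and Pcdhb19 (0.06) were the next genes above 0, with edgeR adjusted p of 0.848 and 0.851. Pcdha8 (0.17) and Pcdhb8 (0.13) had larger fold changes and higher p.

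The remaining C-type genes overlapped between the groups. Control brains averaged 84.4 ± 6.69 CPM of Pcdhgc4, and ICSI-F2 brains 80.4 ± 4.72 CPM (SD, n = 4). Its log2 fold change of -0.07 (edgeR adjusted p = 0.811) became 0.015 without the code letter A libraries. Pcdhac2 averaged 43.2 ± 1.49 and 41.9 ± 2.45 CPM (log2 fold change -0.05, edgeR adjusted p = 0.901). For Pcdhac1 the means were 8.47 ± 0.63 and 7.84 ± 0.97 CPM (log2 fold change -0.11, edgeR adjusted p = 0.873). Pcdhgc5 averaged 19.1 ± 2.41 and 19.3 ± 1.63 CPM, a log2 fold change of 0.008 that turned below 0 when single libraries were left out (edgeR adjusted p = 0.99).

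Summed over its 21 genes, the gamma cluster was lower in all 4 ICSI-F2 libraries than in any control. The sums were 629, 642, 637 and 632 CPM in control replicates 1 to 4 and 606, 601, 616.5 and 611 CPM in ICSI-F2 replicates 1 to 4. The means were 635 ± 5.66 and 609 ± 6.53 CPM (SD, n = 4), so the ICSI-F2 level was 95.8% of control, and no p is given for a sum over chosen members. Of the difference of -26.6 CPM, Pcdhgc3 made up -8.96, Pcdhgc4 -4.02, the 12 gammaA genes together -9.96 and the 6 gammaB genes -3.85 CPM. The fold change was below 0 for 14 of the 21 genes, against 49.6% of all tested genes.

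The alpha and beta clusters overlapped between the groups. The alpha sums were 209, 217, 216 and 200.1 CPM in controls and 204, 222, 212 and 213 CPM in ICSI-F2 brains, with means of 211 ± 7.90 and 213 ± 7.47 CPM (SD, n = 4). The beta sums were 313, 321, 318 and 325 CPM in controls and 318, 318, 309 and 301 CPM in ICSI-F2 brains, with means of 319 ± 4.78 and 311 ± 8.11 CPM (SD, n = 4). The sum over all 57 genes, which holds the gamma genes, was also apart between the groups. It was 1152 to 1181 CPM in controls and 1125 to 1142 CPM in ICSI-F2 libraries. The difference between clusters in their response was not tested.

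The summed neuron markers were also lower in ICSI-F2 libraries. Of 10 markers, 9 had log2 fold changes below 0, against 49.6% of all tested genes, and Rbfox3 stood at 0.016. At an unadjusted p under 0.05, 3 were lower, against 3.37% of all tested genes, and 0 passed an adjusted p of 0.05 in edgeR. They summed to 7980 to 8180 CPM in controls and 7780 to 7840 CPM in ICSI-F2 libraries, without overlap, and none was at 0. Dcx, a microtubule protein of young neurons, accounted for 1770 ± 28.9 and 1670 ± 31.5 CPM (SD, n = 4). Per 1000 CPM of these markers, a scale added after the sums were seen, the gamma cluster stood at 76.9, 79.6, 79.8 and 78.2 CPM in controls and at 77.4, 77.2, 79.2 and 78.0 CPM in ICSI-F2 brains. On that scale the groups overlapped, with means of 78.6 ± 1.33 and 77.9 ± 0.94 (SD, n = 4). The alpha cluster was farther from control on it, with a log2 difference of 0.063 (0.015 as plain CPM) and overlapping groups. Neuron markers were not alone in lying lower. Fold changes were below 0 for 9 of 10 astrocyte and 9 of 9 tested oligodendrocyte lineage markers, against 49.6% of all tested genes. They were below 0 for 4 of 8 forebrain, 2 of 10 microglial and 0 of 10 meningeal markers. The scale above used neuron markers alone.

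**Figure D4:**
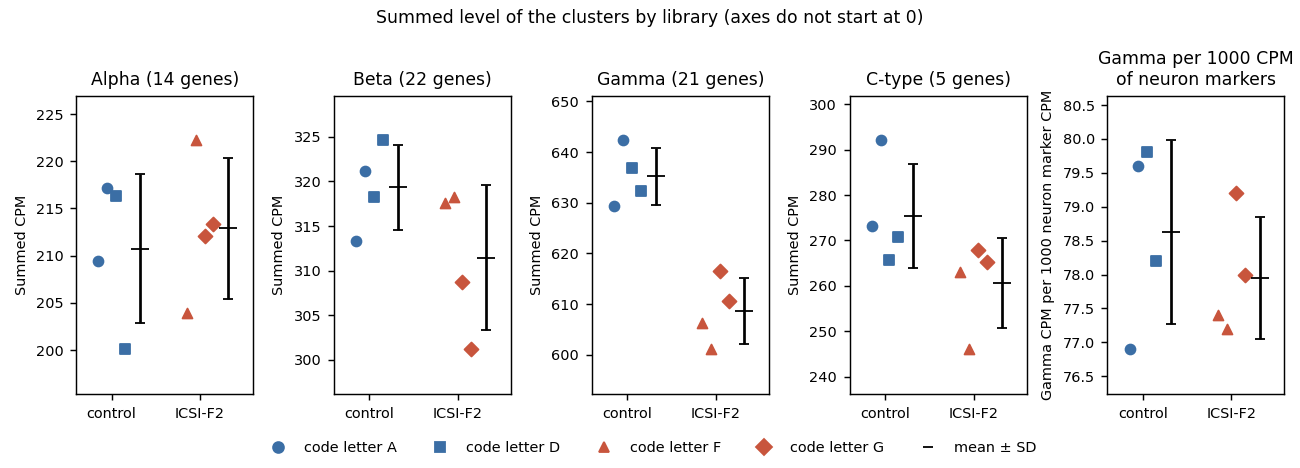
Summed CPM of the alpha, beta, gamma and C-type genes per library, and the gamma sum per 1000 CPM of 10 neuron markers, with marker shapes for the code letters and mean ± SD (n = 4). The gamma sums are 601 to 616.5 CPM in ICSI-F2 and 629 to 642 CPM in control libraries, and the groups overlap once divided by the neuron markers.

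The division of each cluster among its genes was also compared. Each difference was measured as the summed gain in share over the genes that gained, in percentage points of a cluster's counts. The mean profiles of ICSI-F2 and control differed by 3.06 points in alpha, 2.68 in beta and 1.93 in gamma. The largest difference of any alpha gene was -0.912 points, for Pcdha2. Single libraries differed from the mean profile of their own group by 2.26 to 4.98, 2.26 to 3.27 and 1.61 to 2.99 points. Means of 4 libraries vary less than single libraries, so these ranges are no measure of whether the profiles differ. Pcdhb19 took 12.5, 12.6, 12.3 and 12.7% of beta counts in controls and 13.4, 13.0, 13.3 and 13.7% in ICSI-F2 brains. Its groups did not overlap, at means of 12.5 ± 0.18% and 13.4 ± 0.28% (SD, n = 4). This share was named after its values were seen, with no test and no count of other shares that were apart. As CPM the groups of Pcdhb19 overlapped, at 39.1 to 41.2 in controls and 41 to 42.6 in ICSI-F2 brains. The beta sum by which it was divided averaged 319 and 311 CPM. Pcdhac2 took 20.5 ± 0.69% of alpha counts in controls and 19.7 ± 1.59% in ICSI-F2 brains (SD, n = 4). Pcdhgc3 took 18.9 ± 0.56% and 18.3 ± 0.59% of gamma counts, and Pcdhgc4 13.3 ± 1.04% and 13.2 ± 0.69%. ENSMUSG00000007440 took 4.52 ± 0.47% and 5.39 ± 0.60% of alpha counts.

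Libraries of different code letters inside a group were compared to see how far brains of the same treatment differ, with the spread estimated over all 8 libraries. Between letters A and D of the controls, 0 of 56 members passed an adjusted p of 0.05 in edgeR, against 0.957% of all tested genes, and 4 (7.14%) had an unadjusted p under 0.05, against 11.1%. The letters did not overlap in 7 members that were higher under A (12.5%), against 20.5% of all tested genes, and in 11 that were lower (19.6%), against 20.3%. Pcdhgc5 stood at 21 and 21.1 CPM under A and at 18.4 and 16.1 CPM under D (log2 difference 0.29, edgeR adjusted p = 0.266). Pcdhgc4 stood at 87.2 and 91.1 against 75.4 and 84.1 CPM (0.16, edgeR adjusted p = 0.308). Both genes were higher in the letter A libraries, those with hindbrain and cord markers, whose part in the difference was not tested. Pcdhgb1 was lower there, at 16 and 15.9 against 20.2 and 20 CPM (-0.335, edgeR adjusted p = 0.164), as was Pcdhb6, at 5.93 and 4.90 against 7.92 and 6.42 CPM (-0.41, edgeR adjusted p = 0.417). Pcdhga10 (0.15) and Pcdhga3 (-0.17) had edgeR adjusted p of 0.585 and 0.522.

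Between letters G and F of the ICSI-F2 brains, 0 of 56 members passed in edgeR, against 0.263% of all tested genes, and 4 (7.14%) had an unadjusted p under 0.05, against 6.86%. In 6 members (10.7%) both G libraries lay above both F libraries and in 13 (23.2%) below them, against 17.8% of all tested genes in each direction. Pcdhb3 stood at 8.80 and 8.50 CPM under G and at 6.09 and 6.28 CPM under F, a log2 difference of 0.48 (edgeR adjusted p = 0.435). Pcdhb10, at 5.74 and 3.95 against 5.18 and 8.51 CPM (-0.47, edgeR adjusted p = 0.694), overlapped between the letters. Pcdhb13 stood at 4.82 and 5.24 against 6.46 and 7.13 CPM (-0.43, edgeR adjusted p = 0.696). Pcdha5 (-0.23), Pcdha6 (0.22) and Pcdhga8 (0.165) had edgeR adjusted p of 0.728, 0.832 and 0.822. With DESeq2 and the same libraries, 0 members passed in either comparison of letters.

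Genes listed as regulators of these clusters gave no call between ICSI-F2 and control. None of 12 genes of CTCF, cohesin and proteins that act with them, Zfp143 among them, passed in edgeR. Their median log2 fold change was 0.02, and 3 were below 0, against 49.6% of all tested genes. At an unadjusted p under 0.05, 0 were lower and 1 was higher, against 3.93% of all tested genes. That gene was Smc1a, a cohesin ring subunit, at 76.0, 88.2, 85.0 and 77.8 CPM in controls and 87.5, 100, 84.9 and 92.0 CPM in ICSI-F2 brains (log2 fold change 0.155, edgeR adjusted p = 0.54), with overlapping groups. Smc3, its partner in the ring, had a log2 fold change of 0.09 (edgeR adjusted p = 0.722). Ctcf itself stood at 98.9 to 104 CPM in controls and 98.3 to 105 CPM in ICSI-F2 brains.

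DNA methylation and silencing genes gave no call either. Of 8 DNA methylation genes, 0 passed in edgeR and 0 had an unadjusted p under 0.05. The fold change was below 0 for 4, against 49.6% of all tested genes. Tet1, which oxidises methylated cytosine, had a log2 fold change of -0.03 (edgeR adjusted p = 0.912). Dnmt3b, which methylates protocadherin promoters in the mouse embryo, stood at 3.83 to 4.89 CPM in controls and 3.83 to 4.90 CPM in ICSI-F2 brains. Of 10 genes of repressive chromatin, 0 passed and 0 had an unadjusted p under 0.05, with 5 below 0, against the same 49.6%. The lowest p belonged to Rest (0.10, edgeR adjusted p = 0.78) and Wiz (-0.04, edgeR adjusted p = 0.845). Smchd1, a silencer of these clusters in the mouse, stood at 118 to 132 and 123 to 134 CPM. Between letters, Dnmt3a was higher under A than D (edgeR adjusted p = 0.042) and Atf7ip lower under G than F (edgeR adjusted p = 0.0361), both named after their values were seen.

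Partners of the proteins inside and outside the cell were also measured. Of 19 genes of the WAVE actin regulator, kinases and binding partners, 0 passed in edgeR. Their median log2 fold change was -0.03, and 13 were below 0, against 49.6% of all tested genes. At an unadjusted p under 0.05, 3 were lower, against 3.37% of all tested genes, and 0 were higher. Cyfip2, a WAVE complex subunit, stood at 368, 364, 348 and 361 CPM in controls and at 352, 320, 341 and 336 CPM in ICSI-F2 brains (log2 fold change -0.10, edgeR adjusted p = 0.539), with overlapping groups. Ret, a receptor kinase that binds protocadherins, stood at 28.0, 30.1, 19.2 and 18.8 CPM in controls and at 18.9, 18.7, 19.3 and 16.5 CPM in ICSI-F2 brains. Its high libraries were the code letter A controls alone, and A against D passed (edgeR adjusted p = 0.000891). Its log2 fold change between the groups was -0.39 (edgeR adjusted p = 0.674; 0.0151 with no filter on low counts). Of 8 genes of the proteases that cut the proteins, 0 passed and 0 had an unadjusted p under 0.05. The fold change was below 0 for 6, against 49.6% of all tested genes. The lowest p belonged to Ncstn (-0.08, edgeR adjusted p = 0.757) and Aph1b (-0.09, edgeR adjusted p = 0.768), both subunits of gamma-secretase.

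Protocadherins outside the clusters gave a median log2 fold change of 0.001 over 12 genes, against -0.04 over the clustered members. Of the 12, 5 were below 0, against 49.6% of all tested genes. None passed in edgeR. At an unadjusted p under 0.05, 2 were lower, against 3.37% of all tested genes, and 0 were higher. Pcdh10 stood at 396, 417, 415 and 419 CPM in controls and at 367, 370, 412 and 401 CPM in ICSI-F2 brains (log2 fold change -0.09, edgeR adjusted p = 0.599). Pcdh11x had a log2 fold change of -0.09 (edgeR adjusted p = 0.605). Among the markers of other cells, 0 genes of any list passed between ICSI-F2 and control in edgeR. Median log2 fold changes were 0.005 for serotonergic neurons, -0.15 for astrocytes, -0.12 for the oligodendrocyte lineage, -0.02 for forebrain and 0.21 for meninges. They were 0.10 for microglia, 0.50 for 3 tested blood genes, 0.22 for 2 tested liver genes and -1.96 for 3 tested hindbrain genes. The 2 tested liver genes were Ttr (-0.003) and Trf (0.439), which controls also held, at means of 344 and 10 CPM. Alb, Afp, Fgb and Ahsg were not tested, so the liver median does not follow them. Astrocyte markers summed to 1210 and 1120 CPM under letter A, 960 and 1010 CPM under D and 877 to 1040 CPM in ICSI-F2 libraries. In edgeR, 3 astrocyte markers were called higher under A than D, and 3 meningeal markers higher under G than F. The part of the letters in the medians was not tested.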

How the data were processed

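Per the file header, the authors deposited raw counts of reads per gene, with a column for each library, neither normalized nor pooled. The submitters' processing notes name bcl2fastq 2.20, cutadapt 3.4, HISAT2 2.2.1 and HTSeq 2.0.2 and the build mm10. The sources used here do not give the annotation release or strand setting. Per the labels, stranded mRNA libraries were read as single reads of 76 bases. Titles gave the groups, and replicate numbers follow the order of deposition. No pair of libraries within a group was alike to within sampling noise (chi-square per gene 2.24 to 6.17).

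Genes kept by filterByExpr were fitted with edgeR 4.0.16 (R 4.3.3, robust quasi-likelihood F test, TMM factors of 0.989 to 1.01) on all 15565 genes, with Benjamini-Hochberg adjustment over them. DESeq2 1.42.0 and limma 3.58.1 served as alternatives. The edgeR step was also run on simulated counts with 4 libraries per group. Such a run cannot cover fathers and litters that the labels do not state. Exon lengths came from GENCODE M21, in which 99.8% of the table's genes were found. Named are the 4 highest and the 2 lowest tested genes of each cluster per kb, the C-type genes, the 3 members of lowest p per direction and comparison, and 2 genes per regulator or partner list. One gene that the rule names is not reported here. Members and lists were chosen with earlier results of these data known.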

Additional observations from a re-analysis of the deposited data

Results flagged for a closer look

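In 8 of 124 sets of 4 libraries examined, 1 library stood apart from the other 3 of its group by Dixon's 95% criterion, a share near the 1 in 20 that chance gives. In the beta cluster, Pcdhb2 was low in control replicate 1, with 4.16 CPM where the other controls had 5.84 to 6.02. Pcdhb4 was low in ICSI-F2 replicate 4 (7.29 CPM, others 9.32 to 9.73). Control replicate 3 was low in Pcdhb7, at 14.3 CPM against 16.2 to 16.3 CPM, and high in Pcdhb15, at 11.6 CPM against 8.60 to 8.95 CPM. Pcdhb17 was high in ICSI-F2 replicate 1 (35.8 CPM, others 30.6 to 31.2).

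In the gamma cluster, Pcdhgb1 was low in ICSI-F2 replicate 3, with 14.2 CPM where the others had 16.9 to 17.5. Pcdhgb5 was high in control replicate 3, at 28.2 CPM against 23.9 to 24.3 CPM. Pcdhgc3 was low in ICSI-F2 replicate 2 (104 CPM, others 113 to 114).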

How the results depend on the processing

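For the 12 clustered protocadherins named between ICSI-F2 and control, 198 of 204 values kept their direction over 17 alternatives, and 0 passed an adjusted p of 0.05 (lowest 0.392). The exceptions were Pcdhgc4 (0.015 without the code letter A libraries) and Pcdhgc5 (-0.030 without the G libraries and -0.064 to 0.056 with single libraries left out). Tet1 stood at 0.012 without both letters and at -0.052 to 0.005 with single libraries left out, and Pcdha6 in G against F at -0.042 to 0.447. The cause was not tested. Members past the threshold numbered 0 under every alternative in all 3 comparisons. Members at an unadjusted p under 0.05 numbered 6, and 2 without the G libraries, 6 without the A libraries, 7 without both and 3 to 8 with single libraries left out, 3 of them without ICSI-F2 replicate 4. They numbered 4 in each comparison of letters, 1 in each with DESeq2, 2 to 7 (A against D) and 2 to 4 (G against F) with single libraries left out. The members' median log2 in A against D ranged from -0.0366 to 0.022 without single controls. All genes past the threshold numbered 1 for ICSI-F2, and 4 with DESeq2, 50 with no filter, 2 with limma voom, 2 with the code letter as a random block (consensus correlation 0.0278), 5 without A, 6 without A and G, and 1 to 9 with single libraries left out. They numbered 149, 69 with DESeq2, 365 with no filter and 21 to 153 with single libraries left out for A against D, and 41, 23, 97 and 13 to 56 for G against F. The gamma sum kept its direction, at -0.062 on the log2 scale, -0.060 without A, -0.073 without G and -0.068 to -0.056 with single libraries left out. Per 1000 CPM of neuron markers, chosen after seeing the data, it was -0.013, the alpha sum 0.063, the beta sum 0.012, the C-type sum -0.031 and the sum of all 57 genes 0.008. The beta profile difference was 2.23 to 2.98 points with single libraries left out. No paired analysis was possible because the labels give no replicate numbers shared by the groups. Genes under about 100 counts per library, such as Pcdha1 and Pcdhb1, are limited by depth.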
